A study of Mus musculus with 30 samples.

Results

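Transcripts of 10 granulocyte granule genes were followed through cultures of bone marrow-derived dendritic cells (BMDCs). The genes were Mpo, Elane, Prtn3 and Ctsg of the azurophil granule, Ngp, Ltf, Camp and Lcn2 of the specific granule, and S100a8 and S100a9 of the cytosol. They were chosen by name and found through their Ensembl identifiers, and each matched 1 of the 43629 genes of the count table. The study asked how CACNB3, a β subunit of voltage-gated calcium channels, acts in dendritic cells exposed to extracellular ATP. Poly(A) RNA was sequenced from WT and Cacnb3-/- BMDCs, with 5 culture numbers in each genotype and 3 libraries for each number, 30 libraries in all.

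The WT mice were C57BL/6J and the Cacnb3-/- mice C57BL/6N, so that substrain and genotype cannot be told apart. Bone marrow was grown with granulocyte-macrophage colony-stimulating factor (GM-CSF), and the semiadherent cells were used. Cultures ran for 6 days, and ATP was then given at 500 µM for 30 min, with harvest, per the labels, directly or 24 h later. The study's text instead counts 30 min and 24 h from the end of the pulse. The library names call the sets ctrl, 0p5h and 24h. The treatment field of the labels gives ATP for 30 min to the libraries named ctrl and vehicle to those named 0p5h, the reverse of the names. The sets are called here by their names, and the direction of 0p5h against ctrl carries that doubt. The 24h sets have the same meaning in both. Which of ctrl and 0p5h is the vehicle reference for 24h carries the doubt as well. So does the state of the cells in the genotype comparisons within ctrl and within 0p5h. Libraries with the same number are called 1 culture below, although the labels do not say that a number marks 1 animal, so that p-values measure the spread between these libraries.

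Neutrophils load their granules in a fixed order during maturation. Promyelocytes make the azurophil proteins first: myeloperoxidase and the serine proteases neutrophil elastase, proteinase 3 and cathepsin G. Myelocytes and later stages then make the specific granule proteins, and S100A8 and S100A9, which together form calprotectin, gather in the cytosol of maturing neutrophils and of monocytes. GM-CSF acts on granulocyte precursors as well as on the precursors of dendritic cells and macrophages, so that bone marrow cultures of this kind can hold cells of each lineage. In RNA from a whole culture, fewer cells of a type and less RNA per cell cannot be told apart.

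The libraries held between 8237393 and 32164225 counted reads. Levels are given as CPM, the reads of a gene per 1000000 counted reads, scaled by the trimmed mean of M values (TMM). Cacnb3 itself was at 1035 to 2143 CPM in the WT libraries and at 573 to 1331 CPM in the Cacnb3-/- libraries. These ranges overlap, and because the values sum over all exons of the gene, and the deleted part is not given in the sources used here, they do not check the genotype labels. Of the dendritic cell genes, Cd74 had a mean of 12679 CPM, H2-Aa of 7422 CPM and the migration receptor Ccr7 of 3970 CPM. H2-Ab1 averaged 3836 CPM, Itgax 197 CPM, Zbtb46 132 CPM, Ciita 83.7 CPM and Flt3 80.2 CPM. Of the defining neutrophil genes, Ly6g was at 0.652 to 5.26 CPM and Cxcr2 at 1.28 to 8.42 CPM, with reads in every library. Mmp25 and Il1r2, which are also high in neutrophils, averaged 662 and 407 CPM and made up most of the 627 to 1651 CPM that the 10 genes of the neutrophil list summed to.

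The promoters of Ngp, Ltf and Camp are shown because the levels of these 3 genes varied together most closely among the specific granule genes. All 3 lie on chromosome 9 of GRCm38: Ngp, a cathelicidin-related granule protein, at chr9:110419808-110423010 on the plus strand, Ltf, the iron-binding lactoferrin, at chr9:111019292-111042766 on the plus strand, and Camp, the cathelicidin antimicrobial peptide, at chr9:109847377-109849456 on the minus strand. The gap between Camp and Ngp is 570352 bases and that between Ngp and Ltf is 596282 bases. The sequences are the 250 bases before the RefSeq start of each gene in GRCm38.p6, read on the strand of the gene, 5′ to 3′, from chr9:110419558-110419807 for Ngp, chr9:111019042-111019291 for Ltf and chr9:109849457-109849706 for Camp. Capitals mark matches to TTGCNNAA or its complement TTNNGCAA, a core bound by C/EBP factors, which are known regulators of granule genes.
Ngp: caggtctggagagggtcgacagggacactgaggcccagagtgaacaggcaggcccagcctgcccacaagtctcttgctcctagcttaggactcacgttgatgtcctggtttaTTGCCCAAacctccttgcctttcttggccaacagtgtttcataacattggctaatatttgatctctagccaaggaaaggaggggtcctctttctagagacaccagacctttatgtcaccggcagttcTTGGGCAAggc
Ltf: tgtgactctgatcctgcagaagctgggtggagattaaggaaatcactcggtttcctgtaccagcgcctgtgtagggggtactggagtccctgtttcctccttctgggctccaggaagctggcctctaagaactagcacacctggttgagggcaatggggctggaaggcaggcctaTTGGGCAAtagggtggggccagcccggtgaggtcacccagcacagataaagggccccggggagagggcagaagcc
Camp: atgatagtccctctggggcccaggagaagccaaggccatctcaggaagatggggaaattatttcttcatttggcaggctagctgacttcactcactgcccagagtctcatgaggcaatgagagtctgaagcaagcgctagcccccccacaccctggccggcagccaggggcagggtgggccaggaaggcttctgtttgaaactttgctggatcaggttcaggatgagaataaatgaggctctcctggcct
Ngp held 2 matches, starting 138 and 11 bases before the start of the gene. Ltf held 1, starting 75 bases before it, and Camp held 0. Over all 10 genes, 4 windows held this core (Ngp, Ltf, Lcn2 and S100a9), and 9.56% of 32851 RefSeq promoters of the same length did. GAGGAA or its complement TTCCTC, a core bound by the myeloid factor PU.1, was in 7 of the 10 windows and in 23.3% of all promoters. The 7 were Mpo, Elane, Prtn3, Ctsg, Ltf, Lcn2 and S100a8, so that all 4 azurophil genes held the second core and 0 of these 4 the first. Matches are counts of letters and not shown binding.

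The genes fell into 3 ranges of level. Per kilobase of exon, averaged over the 10 cultures, S100a9 was at 320 ± 102 CPM (SD, n = 10) and S100a8 at 227 ± 93.6. The specific granule genes followed, with Ngp at 44.4 ± 18.9, Camp at 26.8 ± 10.7, Lcn2, which binds bacterial siderophores, at 12.1 ± 4.33, and Ltf at 10.9 ± 4.48 CPM per kilobase. The azurophil genes were lowest, with Prtn3 at 0.802 ± 0.349, Elane at 0.371 ± 0.321, Ctsg at 0.173 ± 0.103 and Mpo at 0.0927 ± 0.0810 CPM per kilobase. Each of the 6 genes from S100a9 to Ltf was above the 4 azurophil genes in these means. Neighbours in this order kept it in 10 of 10 cultures except for Lcn2 above Ltf (7 of 10), Elane above Ctsg (8 of 10) and Ctsg above Mpo (8 of 10). Means of neighbours differed by less than the larger of their SDs in these 3 pairs, and also for S100a9 and S100a8 and for Ngp and Camp.

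The azurophil genes rested on few reads. Mpo had 1 to 34 reads in a library and 189 in all 30, Elane 0 to 27 and 206, Ctsg 0 to 12 and 106, and Prtn3 5 to 61 and 807. Elane had no read in 3 libraries and Ctsg in 4. Each specific granule gene had at least 95 reads in every library and each S100 gene at least 626. Between libraries, S100a8 ranged from 29.3 to 204 CPM, Ngp from 17.1 to 126 CPM and Lcn2 from 11.8 to 61.4 CPM.

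**Figure D1:**
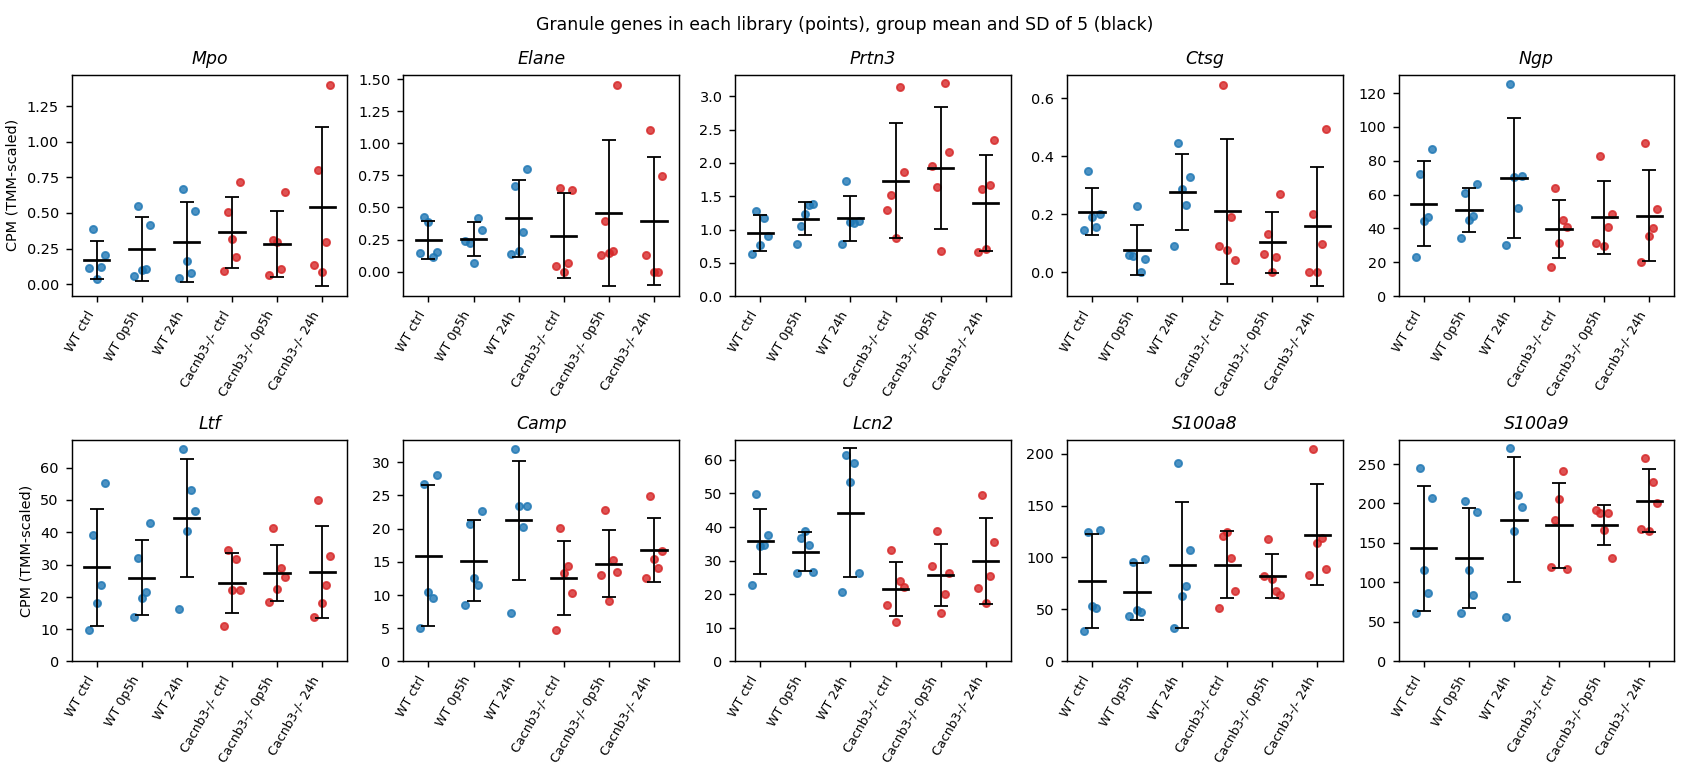
Level of each gene (y axis, TMM-scaled CPM) in the 5 libraries of each genotype and set (x axis). Points are libraries, blue for WT and red for Cacnb3-/-, and black bars are the group mean and SD. The groups overlap for the genes drawn, and the scale of Mpo, Elane and Ctsg ends below 2 CPM.

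The main difference among libraries was between cultures. On the log2 scale, with genotype means removed, the SD between cultures was 0.64 for Ngp, 0.67 for Ltf, 0.64 for Camp, 0.48 for Lcn2, 0.63 for S100a8 and 0.58 for S100a9. The median over all genes that passed the count filter was 0.28. The SD between the 3 libraries of 1 culture, with set means removed, was 0.28 to 0.38 for these 6 genes, against a median of 0.20 over all genes. Between cultures, the spread of Mpo (0.88) and Elane (0.98) was wider still, at few reads in each library. For Ctsg the SD within a culture (0.62) was above that between cultures (0.55).

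The high cultures were largely shared. For Ngp, Ltf, Camp and S100a8, the 3 highest of the 10 cultures were p974s850 and p974s864 of the WT and p974s851 of the Cacnb3-/- genotype. Ngp averaged 86.1, 74.9 and 79.1 CPM in these 3 cultures and 22.9 to 53.3 CPM in the other 7. Ltf averaged 45.7, 48.1 and 41.9 CPM in them and 13.2 to 32.8 CPM elsewhere. Camp averaged 26.5, 24.7 and 22.6 CPM in them and 6.92 to 15.5 CPM elsewhere. The ranges of the 3 cultures and of the other 7 do not overlap for these 3 genes, but the 3 were picked by these levels, so that this is a description. Lcn2 followed them in part: it was highest in p974s850 (49.3 CPM) and at 40.5 CPM in p974s851. Its level in p974s864 was 30.1 CPM, below the 42.1 CPM of p974s855 and the 42.7 CPM of p974s856. S100a9 was at 239 CPM in p974s850, 197 CPM in p974s864 and 208 CPM in p974s851, beside 219 CPM in p974s853.

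The WT culture p974s846 was at the other end. It had the lowest mean of the 10 cultures for Ltf (13.2 CPM), Camp (6.92 CPM), S100a8 (35.05 CPM) and S100a9 (59.6 CPM), as well as for Mpo and Prtn3. The Cacnb3-/- culture p974s843 was lowest for Ngp (22.9 CPM), and p974s852 was lowest for Lcn2 (14.6 CPM). Mpo and Elane were highest in another Cacnb3-/- culture, p974s865, at 0.923 and 0.945 CPM from 63 and 60 reads. Prtn3 was highest in p974s853, at 2.67 CPM. In p974s853 the other azurophil genes were low, with 8 reads of Mpo, 4 of Elane and 5 of Ctsg.

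**Figure D2:**
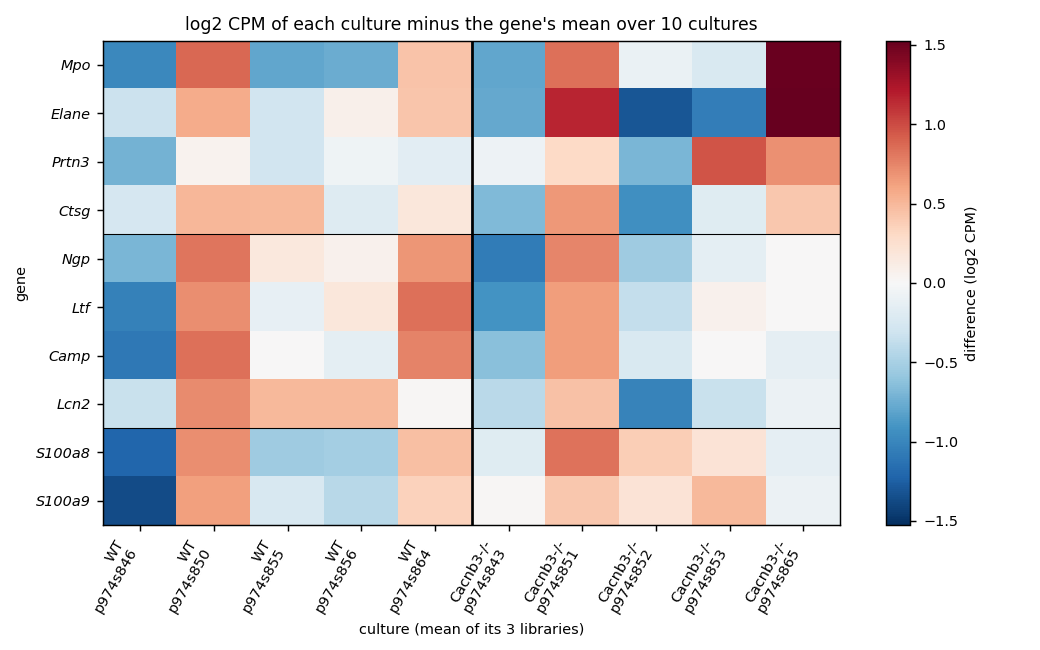
Mean log2 CPM of each culture (x axis, 5 WT then 5 Cacnb3-/-) minus the mean of the gene (y axis) over the 10 cultures. Red is above and blue below that mean, and cultures p974s850, p974s864 and p974s851 are red for Ngp, Ltf and Camp, while p974s846 is blue for all 10 genes.

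The file headers give a sequencing lane for each library, and lane moved with these levels. All libraries of p974s850, p974s864 and p974s851 were on lane 1, with the ctrl library of p974s846 as the 10th library of that lane. The median of Ngp was 71.5 CPM on lane 1, 43.8 on lane 2 and 40.4 on lane 3. For Ltf the medians were 42.1, 22.3 and 19.1 CPM. The ctrl library of p974s846 had 22.9 CPM of Ngp and 9.64 CPM of Ltf, the lowest of the 10 libraries on lane 1, beside 34.1 and 13.9 CPM in its 0p5h library and 30.1 and 16.1 CPM in its 24h library, both on lane 2. The part of lane in these levels was not tested apart from the cultures, since lane and culture largely coincide.

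Pairs of genes were correlated over the 10 cultures on the mean log2 CPM of each, with permutation p-values (2-sided) adjusted over the 45 pairs. All 45 Pearson correlations were positive, from 0.11 to 0.96, and 9 had an adjusted p below 0.05. Within the specific granule genes, Ltf and Camp had r = 0.96 (permutation p = 4e-05, adjusted p = 0.00180) and Spearman rho = 0.88 (permutation p = 0.00156, adjusted p = 0.0231). Ngp and Ltf had r = 0.95 (permutation p = 0.00011, adjusted p = 0.00180) and rho = 0.87 (permutation p = 0.00214, adjusted p = 0.0231). Ngp and Camp had r = 0.92 (permutation p = 0.00038, adjusted p = 0.00427) and rho = 0.93 (permutation p = 0.0004, adjusted p = 0.0180). S100a8, an antimicrobial calcium-binding protein, and its partner S100a9 had r = 0.93 (permutation p = 0.00012, adjusted p = 0.00180) and rho = 0.88 (permutation p = 0.00152, adjusted p = 0.0231). Without the 2 cultures farthest from the median of the first gene, r was 0.93 for Ltf and Camp, 0.93 for Ngp and Ltf, 0.92 for Ngp and Camp and 0.93 for the S100 pair.

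With lane means removed, r was 0.97 for Ltf and Camp, 0.91 for Ngp and Ltf, 0.88 for Ngp and Camp and 0.96 for S100a8 and S100a9. Of the 45 pairs, 5 had an adjusted p below 0.05 with lane means removed, and 16 with genotype means removed. The 3 genes on chromosome 9 and the S100 pair, 22598 bases apart on chromosome 3, were thus the closest pairs with and without lane. This order did not hold in every setting. With genotype means removed, the highest r of an S100 gene with a specific granule gene was 0.95, above the 0.92 of the S100 pair. With the trend with GC content removed, these were 0.92 and 0.91. Cultures that share a lane are not independent of it, and p-values treat the 10 as exchangeable.

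Among the specific granule genes, Lcn2 had the lowest correlations with the others. Its r was 0.75 with Ngp, 0.61 with Ltf and 0.57 with Camp, with permutation p = 0.0136, 0.0650 and 0.0854 (adjusted p = 0.0610, 0.133 and 0.154), and its rho was 0.84, 0.60 and 0.68. With S100a8 and S100a9 its r was 0.13 and 0.14, whereas Camp had r = 0.83 and 0.79 with the same genes (permutation p = 0.00312 and 0.00445, adjusted p = 0.0268 for both, rho = 0.68 for both). With genotype means removed, the r of Lcn2 was 0.42 with S100a8 and 0.44 with S100a9. Of the 8 pairs of an S100 gene with a specific granule gene, 2 had an adjusted p below 0.05, and 6 with genotype means removed. With lane means removed 0 of 8 did, with r from -0.20 to 0.81 and rho from -0.20 to 0.30. Without the 2 cultures farthest from the median, 0 of 8 did, and r was at most 0.63. The difference between the correlations of Lcn2 and those of Camp was not tested.

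Among themselves, the azurophil genes had r from 0.36 to 0.80. Elane and Ctsg had r = 0.80 (permutation p = 0.00537, adjusted p = 0.0268, rho = 0.78), Mpo and Elane r = 0.75 (permutation p = 0.0149, adjusted p = 0.0610, rho = 0.65) and Mpo and Ctsg r = 0.57. Prtn3 had r of 0.36 with Elane, although the 2 genes lie 3138 bases apart on chromosome 10, and 0.22 to 0.52 with each of the 9 other genes. These 4 genes had 0 to 61 reads in a library. Ctsg had r = 0.82 with Ngp and 0.82 with Lcn2 (permutation p = 0.00526 and 0.00371, adjusted p = 0.0268 for both, rho = 0.87 and 0.78). Of the 16 pairs of an azurophil with a specific granule gene, 2 had an adjusted p below 0.05, and 4 with genotype means removed. With lane means removed 0 of 16 did, and the highest r was 0.76. Without the 2 cultures farthest from the median, 0 of 16 did.

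**Figure D3:**
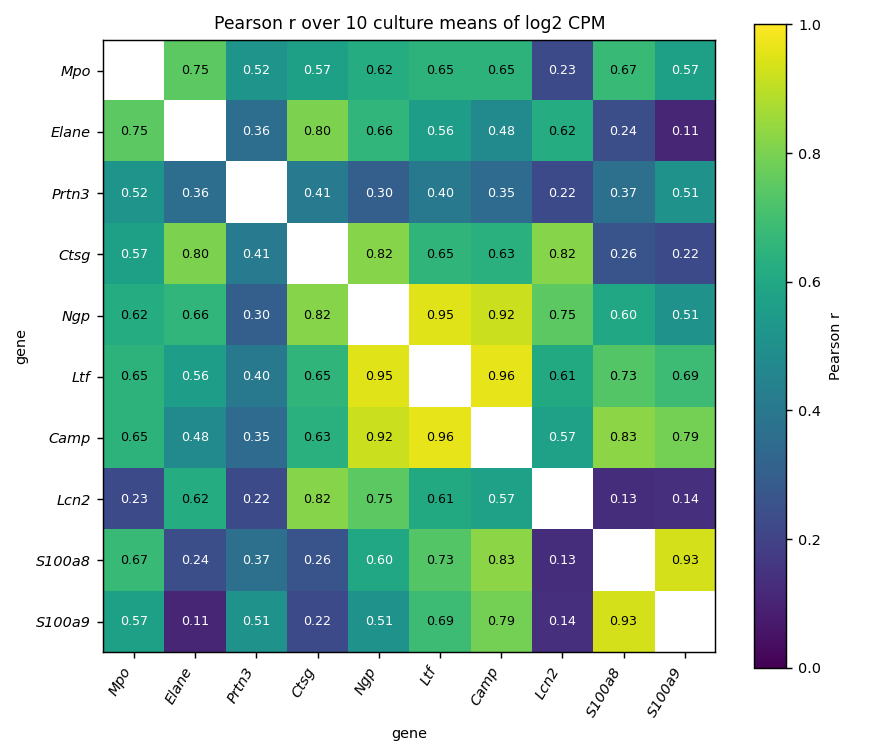
Pearson correlation (colour and printed value) of each pair of genes over the 10 cultures, from the mean log2 CPM of the 3 libraries of each culture. Ngp, Ltf and Camp form a block from 0.92 to 0.96 and S100a8 with S100a9 has 0.93, while Lcn2 has 0.13 and 0.14 with the S100 genes.

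Within cultures, the deviations of the 3 libraries from their own culture mean gave r of 0.75 to 0.79 for the 6 pairs of specific granule genes, over 30 libraries that share their culture and depth. The pairs of an S100 gene with a specific granule gene had 0.53 to 0.80, and the azurophil pairs -0.03 to 0.24. Lcn2 therefore varied with Ngp, Ltf and Camp from set to set as closely as they did with one another.

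The genes most like each group, among 11915 others at a mean of at least 1 CPM, were ranked by their correlation with its standardized mean over the 10 cultures. For the specific granule genes they were Prss34, a basophil serine protease, with r = 0.97, Cd177, a neutrophil surface protein, with r = 0.95, Tcp11l1 (0.90), Trem3, a myeloid receptor (0.88), and Jpt1 (0.86). Prss34 averaged 1.09 CPM and Cd177 2.95 CPM. For the S100 pair they were Kalrn (0.94), the chemokine gene Ccl2 (0.92), Pdhx (0.89), S100a4 (0.89) and Bbs7 (0.88). For the azurophil genes they were BC004004 (0.95), Camk2a (0.90), Tmbim6 (0.90), Iah1 (0.89) and F2rl2 (0.87). They are the highest of 11915 correlations over 10 points, and no p is given for them.

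Other lists of genes were set beside the mean of Ngp, Ltf, Camp and Lcn2 in the same way, as a description over 10 cultures that share lanes. All 12 other specific and gelatinase granule genes correlated positively, with a median r of 0.45, against a median of 0.02 over the 11915 genes. Of the 11915, 6188 correlated positively. The lists, unlike the 11915, also hold genes below a mean of 1 CPM. The 10 mature neutrophil genes had a median of 0.38 (9 positive), the 8 other azurophil and promyelocyte genes 0.23 (6 positive) and the 7 granulocyte transcription factors 0.23 (5 positive). The 10 eosinophil and basophil genes had 0.37 (10 positive), the 8 dendritic cell genes 0.37 (6 positive), the 9 macrophage genes 0.18 (7 positive) and the 6 proliferation genes 0.62 (6 positive). The 3 B cell genes had 0.38, the 3 T cell genes 0.34 and the 6 erythroid genes 0.43, all at few reads. Some abundant genes went against the median of their list. Srgn of the azurophil and promyelocyte list (mean 990 CPM) and Il1r2 of the neutrophil list (407 CPM) each had r = -0.70.

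Those lists differed in level. The dendritic cell genes summed to 15776 to 39618 CPM in a library and the macrophage genes to 682 to 4242 CPM. Means of the macrophage genes ran from 22.4 CPM (Mertk) to 541 CPM (Cd14), with Csf1r at 513 CPM. The eosinophil and basophil genes summed to 6.11 to 143 CPM in a library. Ear2 had the highest mean of them (38.7 CPM) and ranged from 0.844 to 138 CPM. Epx and Prg3, which define eosinophils, had no read in 7 and 14 of the 30 libraries. Ear1, Ear6, Fcer1a and Ms4a2 had no read in 11, 8, 7 and 1 libraries. Prg2 (mean 1.58 CPM), Cpa3 (1.58 CPM) and Mcpt8 (0.875 CPM) had reads in every library. B cell genes summed to at most 3.79 CPM, T cell genes to at most 1.19 CPM and erythroid genes to at most 0.432 CPM. Of the transcription factors of granulocytes, Cebpe, which drives the specific granule stage, averaged 2.04 CPM and Gfi1 0.278 CPM, against 259 CPM for Spi1, which encodes PU.1 and serves all myeloid cells. The proliferation genes Mki67 and Top2a averaged 6.91 and 6.62 CPM.

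In the comparison of genotypes, no gene of the 10 was called in any set. A call needed an adjusted p below 0.05 over all genes tested (edgeR quasi-likelihood test, Benjamini-Hochberg) and a change of at least 2-fold. Of the 10 genes, 7 passed the filter on low counts in each set, and Mpo, Elane and Ctsg did not. Called were 0 of 7 in ctrl, 0p5h and 24h and 0 of 10 with the 3 libraries of each culture summed. The background was as low: 0.0% of 13022 genes in ctrl, 0.0% of 12806 in 0p5h, 0.0% of 12706 in 24h and 0.0% of 14833 with the libraries summed. At an unadjusted p below 0.05 there were 2161, 2103, 4877 and 3449 genes in these 4 comparisons, and 2, 0, 0 and 0 of the 10 genes. With lane as a covariate, 2379, 2088 and 3797 genes had such a p in ctrl, 0p5h and 24h. Of the 7 genes tested, 0, 2 and 1 did. DESeq2 called 146, 83, 606 and 251 genes, and 0 of the 10 in each comparison.

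The estimates of Lcn2 were below 0 for Cacnb3-/- against WT in each set, without passing the test. In ctrl it was at 22.7, 49.7, 34.2, 34.5 and 37.6 CPM in the WT cultures p974s846, p974s850, p974s855, p974s856 and p974s864. In the Cacnb3-/- genotype it was at 16.9 CPM in p974s843, 33.2 CPM in p974s851, 11.8 CPM in p974s852, 23.9 CPM in p974s853 and 22.3 CPM in p974s865. The groups overlap, since p974s851 and p974s853 were above the lowest WT culture. The log2 fold change of Lcn2 was -0.71 ± 0.26 (SE, 95% interval -1.28 to -0.13, adjusted p = 0.262, edgeR) in ctrl, -0.33 ± 0.23 (adjusted p = 0.476) in 0p5h and -0.54 ± 0.34 (adjusted p = 0.253) in 24h. With lane as a covariate these were -0.59, -0.33 and -0.47, and the unadjusted p in ctrl was then not below 0.05 (edgeR). Within lanes, the ctrl level of the Cacnb3-/- culture on lane 1 lay among the WT values, and both Cacnb3-/- cultures were below the WT culture on lanes 2 and 3.

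Prtn3 was the other gene with an unadjusted p below 0.05 in ctrl. Its ctrl levels were 0.626, 1.28, 0.768, 1.17 and 0.910 CPM in the WT cultures and 1.29, 1.51, 0.866, 3.14 and 1.86 CPM in the Cacnb3-/- cultures, in the same orders. Of the Cacnb3-/- cultures, 4 of 5 were above all WT cultures, and p974s852 lay within the WT range. The log2 fold change was 0.89 ± 0.35 (SE, 95% interval 0.13 to 1.65, adjusted p = 0.264, edgeR) in ctrl, 0.74 ± 0.35 (adjusted p = 0.311) in 0p5h and 0.33 ± 0.36 (adjusted p = 0.512) in 24h. With lane as a covariate it was 0.81, 0.62 and 0.49, and the unadjusted p in ctrl was then not below 0.05 (edgeR). These levels rest on 11 to 49 reads in each ctrl library.

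For the remaining genes the intervals were wide. With the 3 libraries summed, the log2 fold change (Cacnb3-/- minus WT, 95% interval) was -0.35 (-1.11 to 0.40) for Ngp, -0.26 (-1.02 to 0.51) for Ltf, -0.23 (-0.99 to 0.53) for Camp and -0.51 (-1.10 to 0.07) for Lcn2. For S100a8 it was 0.33 (-0.44 to 1.10) and for S100a9 0.30 (-0.35 to 0.96). In these estimates 0 of 10 genes passed the threshold, with the smallest adjusted p = 0.222 (Prtn3, edgeR). Lane 1, where the medians of Ngp and Ltf were highest, holds 7 WT and 3 Cacnb3-/- libraries, and with lane as a covariate the ctrl estimates were 0.060 for Ltf and 0.080 for Camp. For Mpo the estimate was 0.82 (-0.66 to 2.30), for Elane 0.39 (-1.10 to 1.87), for Prtn3 0.68 (-0.02 to 1.38) and for Ctsg -0.23 (-1.34 to 0.89). A 2-fold difference lies inside the interval of 8 of the 10 genes on at least one side, all but Camp and S100a9.

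**Figure D4:**
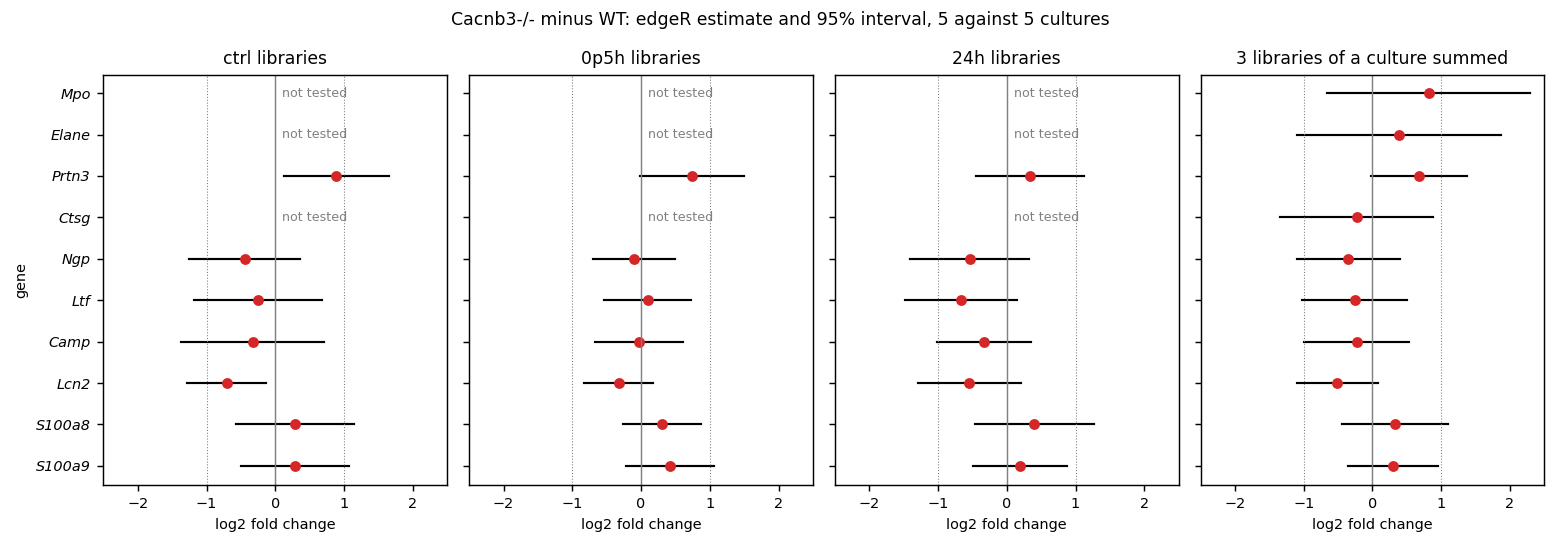
Log2 fold change of Cacnb3-/- against WT (x axis, dotted lines at 2-fold) for each gene (y axis) in the 3 sets and with the libraries of a culture summed. Points are edgeR estimates and lines 95% intervals from 5 against 5 cultures. All intervals but those of Lcn2 and Prtn3 in ctrl include 0. Lane is not a covariate in these fits.

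Between sets, 0 of the 7 genes tested were called in each genotype, and DESeq2 called 0 of the 10 as well. At an unadjusted p below 0.05 in edgeR there was 1, S100a8 in 24h against 0p5h of the Cacnb3-/- BMDCs, where 2222 of 12730 genes had such a p, so that 1 of 7 is not above the background. Against ctrl, 0p5h had log2 fold changes from -0.19 (S100a8) to 0.31 (Prtn3) in WT and from -0.19 (S100a8) to 0.24 (Lcn2) in Cacnb3-/- BMDCs. Over all genes, 0.176% were called in WT and 0.29% in Cacnb3-/- in this comparison. Against ctrl, the 24h estimates were above 0 for 7 of 7 genes in WT (median 0.33, median of all genes -0.0039). In Cacnb3-/- BMDCs they were above 0 for 6 of 7 (median 0.27, median of all genes -0.013). Prtn3 was the exception, at -0.26 in Cacnb3-/- BMDCs. In these fits without a culture block, 0 of 7 had an unadjusted p below 0.05 in each genotype. Called in these were 0.0152% of all genes in WT and 0.0% in Cacnb3-/-, where 1343 of 12452 had an unadjusted p below 0.05. Against 0p5h, 6 of 7 estimates were above 0 in each genotype (medians 0.47 and 0.20), all but Prtn3 (-0.0048 in WT and -0.40 in Cacnb3-/-), with 0.639% and 0.66% of all genes called. The comparisons share their 24h libraries and are not independent of each other.

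Because same-numbered libraries deviated together, the sets were also compared with the culture number as a block. The members called stayed at 0, and the genes called over the table went from 2 to 122 (WT, 24h against ctrl), from 82 to 228 (WT, 24h against 0p5h), from 0 to 138 (Cacnb3-/-, 24h against ctrl) and from 84 to 367 (Cacnb3-/-, 24h against 0p5h). At an unadjusted p below 0.05 in these blocked fits, there were 3, 4, 3 and 1 of the 7 genes, in this order. Over all genes there were 2884 of 13176, 3549 of 12830, 3876 of 12452 and 5435 of 12730. With the block and no minimum change, 1 of the 7 genes passed an adjusted p of 0.05 in each of these comparisons. The background for that rule was 6.05%, 11.3%, 8.54% and 28.6% of all genes in the same order. A share of 1 of 7 is below the background in the last comparison and above it in the others. With 7 genes, 1 is the smallest count above 0, so that it is not read as an excess.

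Ltf was the gene that passed in WT. It was at 9.64, 39.3, 18.1, 23.7 and 55.1 CPM in the ctrl libraries of p974s846, p974s850, p974s855, p974s856 and p974s864, and at 13.9, 32.1, 19.7, 21.4 and 42.8 CPM in 0p5h. In 24h it was at 16.1, 65.8, 40.4, 53.2 and 46.4 CPM. All 5 WT cultures were thus higher in 24h than in 0p5h, and 4 of 5 were higher than in ctrl, p974s864 being the exception. In the blocked fit the log2 fold change was 0.72 ± 0.18 (SE, adjusted p = 0.0497, edgeR) against ctrl and 0.76 ± 0.17 (adjusted p = 0.0236) against 0p5h, and unblocked 0.61 ± 0.45 (adjusted p = 0.736) and 0.78 ± 0.37 (adjusted p = 0.469).

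In the Cacnb3-/- cultures Ltf was at 11.03, 34.5, 21.96, 31.6 and 22.2 CPM in ctrl, in the same order as for Lcn2, and at 18.5, 41.3, 22.5, 28.95 and 26.1 CPM in 0p5h. In 24h it was at 13.8, 49.9, 18.04, 23.7 and 32.5 CPM. Of these cultures 2 were higher and 3 lower in 24h than in 0p5h. The blocked log2 fold change was -0.05 ± 0.13 (adjusted p = 0.786, edgeR). The change from 0p5h to 24h in Cacnb3-/- minus that in WT was -0.81 ± 0.24 with the block (adjusted p = 0.108, edgeR) and -0.75 ± 0.52 without it (adjusted p = 0.690), so that a difference between the genotypes was not called. Over all genes, 0.0% were called for each of the 3 differences of this kind (30 of 13465, 658 of 13536 and 789 of 13424 genes at an unadjusted p below 0.05 for 0p5h against ctrl, 24h against ctrl and 24h against 0p5h), and 0 of the 7 or 9 members tested. With the block, 0, 16 and 1 of all genes were called (312, 2639 and 3817 at an unadjusted p below 0.05), and 0 members.

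Lcn2 and S100a8 passed in the Cacnb3-/- cultures. Lcn2 was at 21.8, 49.6, 17.3, 25.3 and 35.6 CPM in their 24h libraries, higher than in ctrl in 5 of 5, with a blocked log2 fold change of 0.45 ± 0.12 (adjusted p = 0.0418, edgeR). One pair of these libraries, from p974s843, deviated together only weakly over all genes (r = 0.07). In the WT cultures Lcn2 was at 20.8, 61.4, 53.4, 59.1 and 26.3 CPM in 24h, higher than in ctrl in 3 of 5 (blocked 0.23 ± 0.17, adjusted p = 0.455). The difference between genotypes was 0.23 ± 0.22 with the block (adjusted p = 0.557) and 0.17 ± 0.46 without it (adjusted p = 0.923).

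S100a8 was at 82.0, 117, 79.3, 67.7 and 63.5 CPM in 0p5h and at 83.3, 204, 114, 119 and 89.1 CPM in 24h of the Cacnb3-/- cultures. It was higher in 24h in 5 of 5, by 0.55 ± 0.11 on the log2 scale with the block (adjusted p = 0.00618, edgeR) and by 0.59 ± 0.25 without it (adjusted p = 0.263). In the WT cultures it was at 43.5, 95.8, 49.9, 47.7 and 98.3 CPM in 0p5h and at 32.4, 191, 62.8, 72.2 and 107 CPM in 24h, higher in 4 of 5 (blocked 0.34 ± 0.17, adjusted p = 0.234). The difference between genotypes was 0.21 ± 0.22 with the block (adjusted p = 0.555). The culture with the largest S100a8 level, p974s851 at 204 CPM in 24h, was on lane 1 in all its sets.

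**Figure D5:**
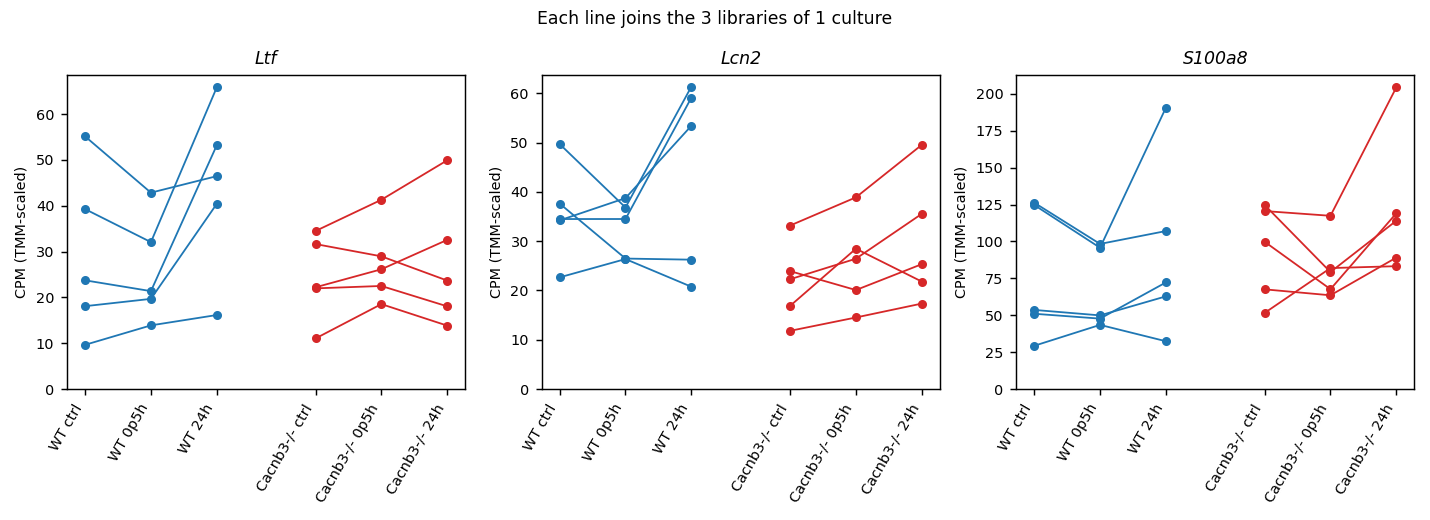
Level (y axis, TMM-scaled CPM) of Ltf, Lcn2 and S100a8 in the 3 sets (x axis), with a line for each of the 5 WT (blue) and 5 Cacnb3-/- (red) cultures. The lines of Ltf go up from 0p5h to 24h in 5 of 5 WT cultures, and those of S100a8 in 5 of 5 Cacnb3-/- cultures.

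Over the 13 comparisons, 3 genes of the other lists were called, all lower in 24h than in 0p5h in WT: Slpi, a secreted protease inhibitor of the specific granule list, by -1.25 ± 0.25 on the log2 scale (adjusted p = 0.0393, edgeR), Trem1, an activating receptor of the neutrophil list, by -3.11 ± 0.46 (adjusted p = 0.00685), and Cd14, the lipopolysaccharide co-receptor of the macrophage list, by -2.48 ± 0.51 (adjusted p = 0.0396). In that comparison 1 of 11 tested genes of the other specific granule list, 1 of 10 of the neutrophil list and 1 of 9 of the macrophage list were called, where 0.639% of all genes (82 of 12830) were called, beside 0 of 5 other azurophil genes, 0 of 6 transcription factors, 0 of 4 eosinophil and basophil, 0 of 8 dendritic cell and 0 of 5 proliferation genes. The median log2 fold change there was -0.19 over the other specific granule list, 0.23 over the neutrophil list and 0.47 over the 7 granule genes.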

How the data were processed

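RNA-seq gene counts of 30 BMDC libraries were used. Per the file headers, the authors counted reads with featureCounts 1.5.1 over the exons of Ensembl 79 on GRCm38, from alignments of read 1 and with no option given for strand, so that reads of overlapping antisense genes cannot be separated. The deposited values are raw counts. Per the submitters' processing notes the aligner was STAR 2.4 and the build mm10, and the study's methods name GRCm39 instead. The labels and the methods also name different sequencers. The counts ran from 8237393 to 32164225 a library, and their number limits the precision of the genes with few reads. All columns were matched to a sample by its title. Of the 43629 identifiers, 89.4% were given a symbol from GENCODE M39, and all 10 genes matched. Promoters and the shares of motifs came from RefSeq on GRCm38.p6.

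Counts were scaled by TMM in edgeR 4.0.16 (R 4.3.3), genes were filtered with filterByExpr, and each comparison was fitted on the libraries it concerns with the quasi-likelihood test. P-values were adjusted by the Benjamini-Hochberg method over all genes tested. Log2 CPM used a prior count of 2. The scripts were tested on simulated data. Correlations used 10 culture means and 100000 resamples (exact enumeration with 8 cultures, SciPy). In 5 of 6 comparisons of sets within a genotype, libraries with the same number deviated together over 13755 genes, with r from 0.32 to 0.85 in every pair. In the Cacnb3-/- comparison of 24h with ctrl, 1 pair (p974s843) had r = 0.07. The pairing is taken from the numbers in the titles and this check.

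All 10 genes are named, as well as list genes called in a comparison (up to 5 a list), the highest genes and defining markers of the other lists, and the 5 genes most alike each group. The 10 genes, the lists and the motifs were chosen with earlier results of these data known. Alternatives were no count filter, DESeq2 size factors, DESeq2 1.42.0, all libraries in 1 fit, removal of the trend with GC content, the block, each culture left out and, added after the data were seen, lane.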

Additional observations from a re-analysis of the deposited data

Results flagged for a closer look

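A single library stood apart from the other 4 of its group in 4 of the 60 combinations of gene and group, by a gap to its neighbour above Dixon's critical share of the group's range. Such a gap arises by chance in about 1 of 20 groups, and all 4 concern azurophil genes at few reads. Elane, neutrophil elastase, was at 1.46 CPM (27 reads) in the 0p5h library of the Cacnb3-/- culture p974s865, and the next library had 0.398 CPM (9 reads). Ctsg, cathepsin G, was at 0.349 CPM (9 reads) in the WT ctrl library of p974s850, where the next had 0.202 CPM. It was at 0.228 CPM (7 reads) in the WT 0p5h library of p974s855, where the next had 0.0604 CPM (1 read). It was at 0.648 CPM (9 reads) in the Cacnb3-/- ctrl library of p974s851, where the next had 0.192 CPM (3 reads). In 0 genes did every culture of one genotype go up and every culture of the other go down between sets.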

How the results depend on the processing

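The count of granule genes called stayed at 0 in all 13 comparisons under each of the 189 alternatives run, DESeq2, the replicate block and each left-out culture included. Of 576 refitted log2 fold changes, which cover 41 results and not every estimate of the 10 genes, 565 kept their sign. Some estimates outside these 41 turned as well. With 1 culture left out, Camp in Cacnb3-/- against WT in 0p5h changed sign in 5 of 10 fits. Prtn3 in WT 24h against 0p5h did so in 4 of 5 fits. With lane as a covariate, Cacnb3-/- against WT in ctrl turned to 0.060 for Ltf and 0.080 for Camp, and with the GC trend removed, 24h turned to 0.0011 for Camp and -0.11 for S100a9. In Cacnb3-/- BMDCs, Ltf in 24h against 0p5h went from 0.02 to -0.050 once cultures entered as a replicate block. With 1 culture left out, Ltf in ctrl ranged from -0.47 to 0.11 (above 0 without p974s864), S100a9 in 24h from -0.038 to 0.39 (below 0 without p974s846), Elane with summed libraries from -0.25 to 0.64 (below 0 without p974s865), Ltf in Cacnb3-/- 24h against 0p5h from -0.12 to 0.092 (below 0 without p974s851 or p974s865, the latter at -0.064) and the S100a8 difference between genotypes from -0.011 to 0.38 (below 0 without p974s864). The cause was not tested.

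Of the 45 correlations, 9 passed, against 16 with genotype means removed, 11 with the GC trend removed, 5 with lane means removed and 5 without the 2 cultures farthest from the median, where only 8 cultures enter. The CPM on library totals differed from the TMM-scaled mean by less than the SD in all 60 groups.

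Over all genes, the counts called depended on the method. Cacnb3-/- against WT in 24h went from 0 to 376 without the count filter, 615 with all libraries in 1 fit and up to 1129 with 1 culture left out (p974s865), and in ctrl and with summed libraries from 0 to 249 and 380 without p974s864. The block with the GC trend removed gave 84, 150 and 241 genes in WT (0p5h against ctrl, 24h against ctrl, 24h against 0p5h) and 93, 98 and 276 in Cacnb3-/-, and the block alone gave 76 and 82 for 0p5h against ctrl, where the unblocked fits gave 23 and 37. DESeq2 gave 51, 30 and 148 in WT and 56, 48 and 203 in Cacnb3-/-. Without 1 culture the unblocked counts ranged from 3 to 13, 0 to 2 and 39 to 72 in WT and from 16 to 26, 0 to 3 and 20 to 66 in Cacnb3-/-. In WT, 0p5h against ctrl was lowest without p974s850 or p974s856 and 24h against 0p5h without p974s850. In Cacnb3-/-, these 2 were lowest without p974s851. In the block with the GC trend removed, Camp (0.42, adjusted p = 0.0253) and Lcn2 (0.44, adjusted p = 0.0231) also passed an adjusted p of 0.05 in Cacnb3-/- 24h against 0p5h, below 2-fold. By the same rule, 2489 of all 12730 genes tested passed in that comparison. With the block, the differences between genotypes in the change to 24h gave 16 (against ctrl) and 1 (against 0p5h) genes, or 15 and 2 with the GC trend also removed, where the unblocked fits gave 0. Mpo, Elane and Ctsg rest on few reads, and without the count filter and in DESeq2 all 10 genes were tested and 0 called.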
